A study of Mus musculus with 10 samples.

Results

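Genes of mitosis and of the G2/M stage of the cell cycle were examined in mammary gland RNA of mice that had eaten a control (CFA) or a high (HFA) folic acid diet. The set holds 36 genes, chosen by symbol for their part in cell division, out of 46983 genes counted. All 36 were found in the count lists, and all 36 passed the filter on low counts, so no member was lost from the tests. Virgin female C57BL/6 mice were given 1 mg folic acid per kg diet (CFA, 5 libraries) or 5 mg per kg (HFA, 5 libraries) for 4 weeks and then a common maintenance diet for 4 weeks. Total RNA was taken on postnatal day 130 from intact right thoracic mammary fat pads, with 1 library per mouse. Libraries are numbered here within each diet.

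A cell that enters mitosis is driven by Cdk1 bound to the A-type and B-type cyclins. The Aurora and Polo kinases build the spindle, kinetochore proteins attach chromosomes to it, and a checkpoint holds the anaphase-promoting complex (APC/C) until every chromosome is attached. Most genes of this programme are transcribed only in late S phase, G2 and mitosis, so that their mRNA in a whole tissue comes from its cycling cells. In a mammary fat pad epithelial, stromal and immune cells can all contribute. A pair of short promoter motifs recurs in the programme: the cell cycle genes homology region (CHR), bound by the MuvB core of the DREAM, B-Myb and FoxM1 complexes, and the CCAAT box, bound by NF-Y. In bulk RNA a smaller number of dividing cells and less of each mRNA per dividing cell cannot be told apart.

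The counts on genes came to 7672199 in the shallowest library and 14829291 in the deepest, and levels are given as CPM, the reads of a gene per 1000000 counted, on library sizes scaled by TMM (trimmed mean of M values). The fat pads held more than mammary epithelium. In CFA 2, CFA 5 and HFA 5, Ighd, the heavy chain of the IgD receptor of naive B cells, reached 105, 290 and 895 CPM, against 0.914 to 1.64 CPM in the other 7 libraries. In these 3 libraries the summed level of 8 B cell markers was 452, 1213 and 3555 CPM (4.55 to 7.07 CPM in the other 7) and that of 7 T cell markers 174, 417 and 993 CPM (7.41 to 20 CPM). The germinal centre marker Rgs13 was near 0 throughout. Counts and medians over the members are therefore given with all 10 libraries and with the 7 in which Ighd was at or below 50 CPM, which are 3 CFA (1, 3 and 4) and 4 HFA (1 to 4).

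Every one of the 36 genes had a lower fitted level in HFA than in CFA, but with all 10 libraries none passed the test. The summed level of the 36 genes was 429, 382, 628, 291 and 186 CPM in CFA 1 to 5 and 105, 128, 146, 62.4 and 437 CPM in HFA 1 to 5. HFA 1 to 4 therefore lay below every CFA library, and HFA 5 lay above all but CFA 3. The group means were 383 ± 165 CPM for CFA and 176 ± 150 CPM for HFA (SD, n = 5 each). Over the members the log2 fold change, HFA against CFA, ran from -2.0 (Cdc25c) to -0.35 (Cenpa) with a median of -1.13 and standard errors (SE, given after ± for log2 fold changes) of 0.26 to 0.83. Of all 15610 genes tested, 40.0% had a log2 fold change below 0 and the median was 0.06. In the quasi-likelihood test of edgeR, Benjamini-Hochberg adjusted over all genes, 0 of the 36 members passed an adjusted p of 0.05, as did 0% of all genes. The smallest adjusted p of a member in this test was 0.648 (Anln) and the largest 0.874 (Cenpa). At an unadjusted p below 0.05 the test gave 12 members, all lower in HFA, where 3.49% of all genes were lower at that level. The likelihood ratio test, DESeq2 and limma voom likewise gave 0 members, while limma voom with quality weights, which gives discordant libraries less weight, gave 31 of 36, all lower in HFA, beside 3.31% of all genes.

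**Figure D1:**
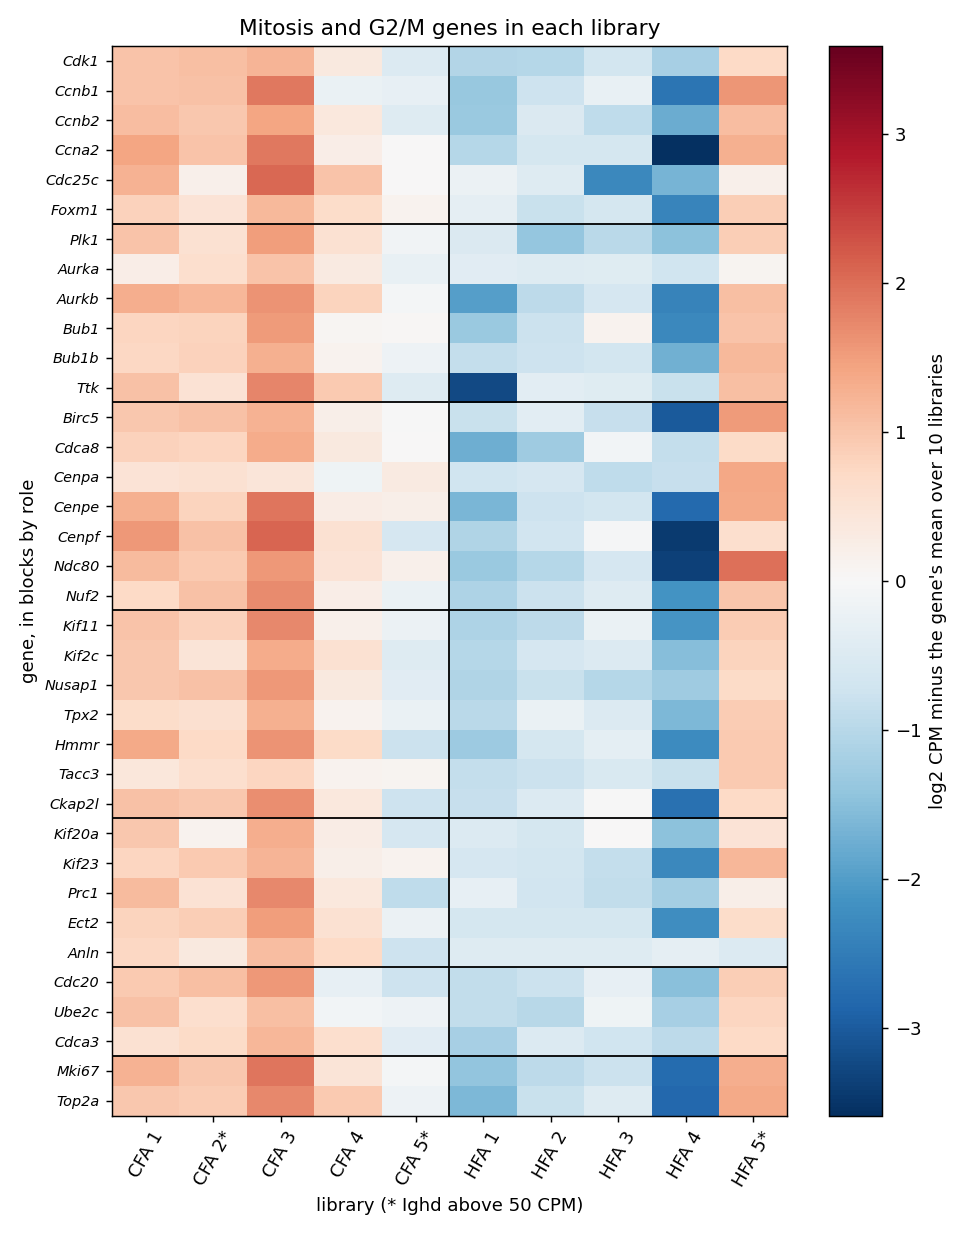
Level of each of the 36 mitosis and G2/M genes in each library, as log2 CPM minus the gene's mean over the 10 libraries (colour, blue low and red high), with genes in blocks by role and a vertical line between diets. CFA 3 is the highest of the 10 libraries for 32 genes and HFA 4 the lowest for 29, and HFA 5 stands with the CFA libraries rather than with HFA 1 to 4.

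A few libraries held the extremes for nearly all members. CFA 3 was the highest of the 10 libraries for 32 members and HFA 5 for the other 4. HFA 4 was the lowest for 29 members, HFA 1 for 4, HFA 3 for 2 and CFA 5 for 1. HFA 5 was above all 4 other HFA libraries for 35 members, the exception being Anln, and above the lowest CFA library for all 36. Its level was between 0.952 (Anln) and 11.1 (Ndc80) times the mean of HFA 1 to 4, with a median over members of 3.63 times. CFA 5 was the lowest CFA library for 35 members, and for 25 members all 5 CFA libraries were above HFA 1 to 4, as for 4.74% of all genes. No member had every CFA library above every HFA library, a pattern seen in 0.243% of all genes. HFA 5 and CFA 5, the libraries that lay nearest to the other diet, are also those with the highest and the second highest Ighd. CFA 2, also of high Ighd, was above HFA 1 to 4 for all 36 members. For 27 members it lay within the range of CFA 1, 3 and 4. The part of lymphoid RNA in these values was not tested.

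Without the 3 libraries of high Ighd, 21 of the 36 members passed the test, all lower in HFA. The summed level was 449 ± 169 CPM in CFA (SD, n = 3) and 110 ± 36.2 CPM in HFA (SD, n = 4). All 36 log2 fold changes were below 0, as were 49.0% of the 15759 genes tested, and they ran from -2.91 (Cdc25c) to -1.07 (Cenpa) with a median of -1.98 and standard errors of 0.15 to 0.68, against a median over all genes of 0.01. The 21 members that passed the quasi-likelihood test stand beside 1.80% of all genes that passed it with lower values in HFA, and the adjusted p-values of the 36 lay between 0.0394 (Anln) and 0.095 (Bub1). All 36 had an unadjusted p below 0.05, as had 11.5% of all genes in this direction. For 34 members every CFA library was above every HFA library, as for 10.6% of all genes. The exceptions were Bub1, where HFA 3 (2.7 CPM) was above CFA 4 (2.6 CPM), and Cdc20, where HFA 3 (3.41 CPM) and CFA 4 (3.4 CPM) were level. The number that passed rests on single libraries: it was 0 when any of CFA 1, CFA 3 or HFA 1 to 4 was also left out and 32 when CFA 4 was, with all 36 log2 fold changes below 0 each time and medians of -1.68 to -2.21. Since the libraries left out hold the lowest CFA and the highest HFA values of nearly all members, their removal by itself widens the difference. With HFA 5 alone left out, the median over members was -1.82 and 0 members passed. The smallest adjusted p of a member in the quasi-likelihood test was then 0.05 after rounding, at the threshold. All 36 members had an unadjusted p below 0.05 there, beside 4059 of 15735 genes in either direction.

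**Figure D2:**
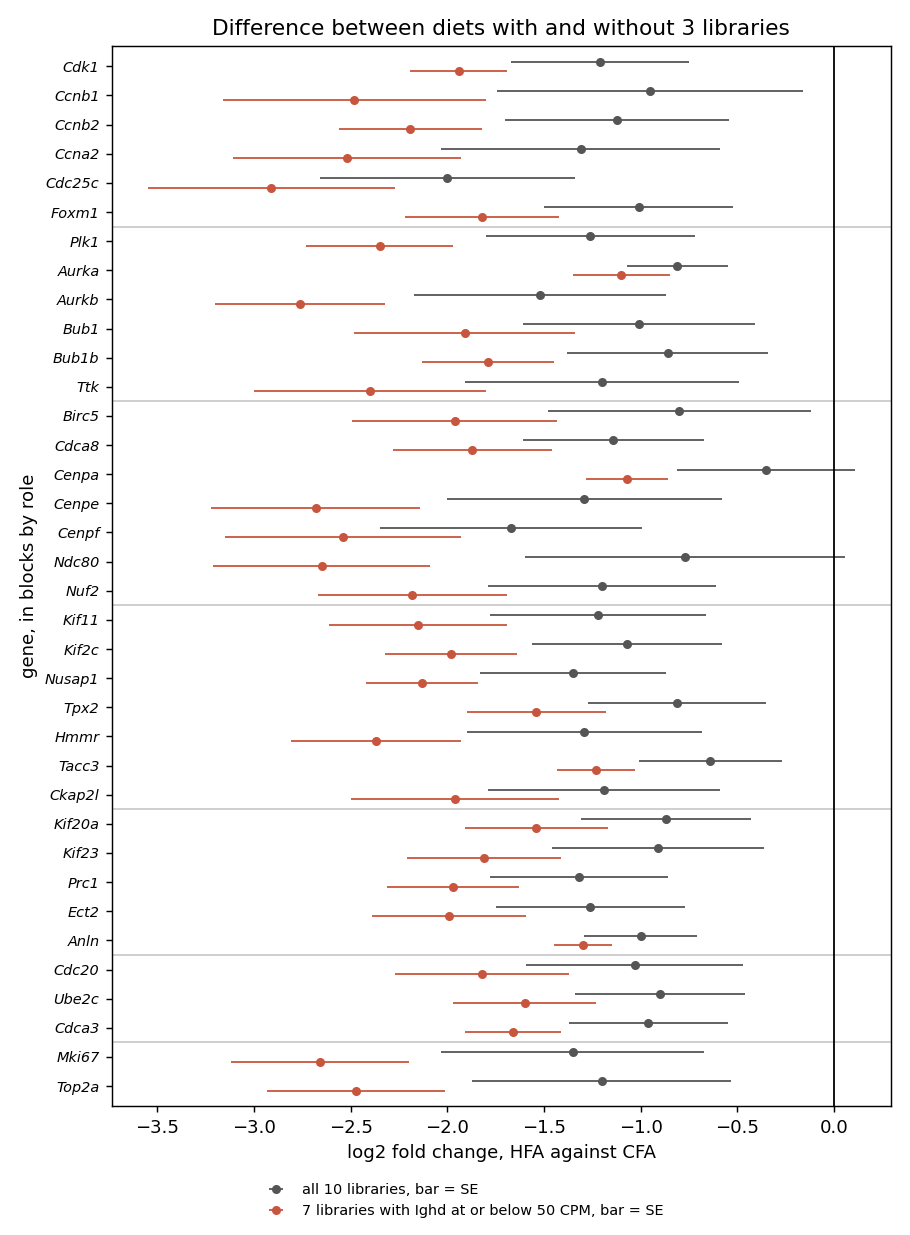
Log2 fold change of each member, HFA against CFA, with all 10 libraries (grey) and with the 7 libraries in which Ighd was at or below 50 CPM (red). Points are estimates of the edgeR fit and bars their standard errors. Every point lies left of 0, and the red points run from -2.91 to -1.07 against -2.0 to -0.35 for the grey ones.

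The sample titles carry a second digit whose meaning the labels do not give. Among the libraries with digit 2 (CFA 1 and 2, HFA 1 to 3), 35 members were tested, all 35 were lower in HFA (median log2 fold change -1.67) and 29 passed, beside 4.11% of all genes. Among those with digit 3 (CFA 3 to 5, HFA 4 and 5), 34 of 36 were lower (median -0.72) and 0 passed, as did 0% of all genes. The digit 3 libraries include both CFA 5 and HFA 5. Here Cenpa (0.36) and Ndc80 (0.05) had log2 fold changes above 0. The cages of the mice, a term of the original analysis, are not in the labels and could not be fitted.

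Levels per length of exon allow the members to be compared with each other. Mki67, which codes for the Ki-67 protein that coats mitotic chromosomes, had the highest level per length with 6.12 CPM per kb in CFA and 2.39 in HFA (means of 5). Top2a, the topoisomerase that untangles sister chromatids, followed with 4.91 and 2.13 CPM per kb, and Ccnb2 with 4.56 and 2.05. Cdc25c was the lowest with 0.325 and 0.0748 CPM per kb. Mki67 and Top2a together held 25.5% to 29.5% of the summed CPM of the 36 genes in the CFA libraries, 11.6% to 22.8% in HFA 1 to 4 and 29.6% in HFA 5. The other members were low: 32 had a mean below 10 CPM and 13 a mean below 5 CPM over the 10 libraries. Their counts in a library ran from 0 (Cdc25c in HFA 3 and Ttk in HFA 1) to 419 (Kif11 in CFA 3), against up to 1716 for Mki67, and 3 counts, the limit that a count of 0 allows, correspond to 0.426 CPM in HFA 3 and 0.332 CPM in HFA 1.

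The promoters of the members were searched for the letters of both motifs in the RefSeq windows of 300 bases (GRCm38.p6, 250 bases before to 50 after the transcript start). A window was found for 30 of the 36 members, with a pair of windows each for Ect2 and Prc1, which gives 32 windows. Not matched were Aurkb, Ccna2, Cdc25c, Foxm1, Kif20a and Tpx2. The CHR letters TTTGAA or TTCGAA, on either strand, were in 26 of the 32 windows (81.2%), against 19.2% of all 32851 windows of the table. CCAAT on either strand was in 25 (78.1% against 37.4% of all), and both were in 23 (71.9% against 7.52% of all). A CHR and a CCAAT match overlapped in 1 member window. In 23 windows a CHR match lay downstream of a CCAAT match, with a gap between the closest such matches of 4 to 148 bases and a median of 27. The windows of Birc5, Nuf2, Nusap1 and Tacc3 held neither. Of the 57 windows of other mitotic genes 45.6% held both, and of 11 windows of replication genes 18.2%. For the APC/C core subunits, a list that also holds the activator Fzr1, it was 0% of 17 windows. The matches are letters in a window and not measured binding.

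The stretches of 7 members are shown because they carry both CHR and CCAAT letters upstream of the start. Some of these members share a role. Ccnb1 is shown as a member with CCAAT letters alone. Each gives the 150 bases that end just before the RefSeq start, in the gene's own direction, with CHR and CCAAT matches in capitals. In GRCm38.p6 they are chr7:135716380-135716529 (Mki67, minus strand), chr11:99024190-99024339 (Top2a, minus), chr10:69352913-69353062 (Cdk1, minus), chr4:118437344-118437493 (Cdc20, minus), chr2:164769779-164769928 (Ube2c, plus), chr19:37376232-37376381 (Kif11, plus), chr7:80294326-80294475 (Prc1, plus) and chr13:100786487-100786636 (Ccnb1, minus).
Mki67: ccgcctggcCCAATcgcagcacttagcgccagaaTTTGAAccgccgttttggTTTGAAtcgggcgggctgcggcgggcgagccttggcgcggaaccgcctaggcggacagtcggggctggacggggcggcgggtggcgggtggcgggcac
Top2a: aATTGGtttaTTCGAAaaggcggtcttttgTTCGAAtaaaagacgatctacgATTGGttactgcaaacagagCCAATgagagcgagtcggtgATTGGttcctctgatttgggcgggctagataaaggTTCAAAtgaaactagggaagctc
Cdk1: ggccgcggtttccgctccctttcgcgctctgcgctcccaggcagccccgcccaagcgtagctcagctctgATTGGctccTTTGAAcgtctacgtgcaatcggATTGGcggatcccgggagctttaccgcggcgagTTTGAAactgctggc
Cdc20: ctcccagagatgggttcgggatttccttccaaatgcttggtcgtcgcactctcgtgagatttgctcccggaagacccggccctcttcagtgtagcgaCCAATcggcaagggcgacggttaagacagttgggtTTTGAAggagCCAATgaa
Ube2c: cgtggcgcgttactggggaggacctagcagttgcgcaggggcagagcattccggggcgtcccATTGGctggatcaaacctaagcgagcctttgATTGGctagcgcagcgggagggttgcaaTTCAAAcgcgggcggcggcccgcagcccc
Kif11: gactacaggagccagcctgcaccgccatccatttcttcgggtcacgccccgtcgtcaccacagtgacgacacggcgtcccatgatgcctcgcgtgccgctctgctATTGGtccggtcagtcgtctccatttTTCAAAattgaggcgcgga
Prc1: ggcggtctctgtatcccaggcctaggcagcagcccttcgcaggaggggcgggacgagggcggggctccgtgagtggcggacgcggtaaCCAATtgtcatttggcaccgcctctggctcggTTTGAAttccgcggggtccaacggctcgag
Ccnb1: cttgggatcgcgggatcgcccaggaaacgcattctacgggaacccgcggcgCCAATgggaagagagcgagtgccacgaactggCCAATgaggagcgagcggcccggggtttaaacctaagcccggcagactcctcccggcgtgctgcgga
In the first sequence Mki67 carries its CHR letters at -116 and -98, counted to the first base of the match with -1 just before the start. In Cdk1 each of 2 CHR matches (-71 and -15) has an inverted CCAAT box before it (-80 and -48), and in Kif11, Prc1, Ube2c and Cdc20 a single CHR match lies between -30 and -18.

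**Figure D3:**
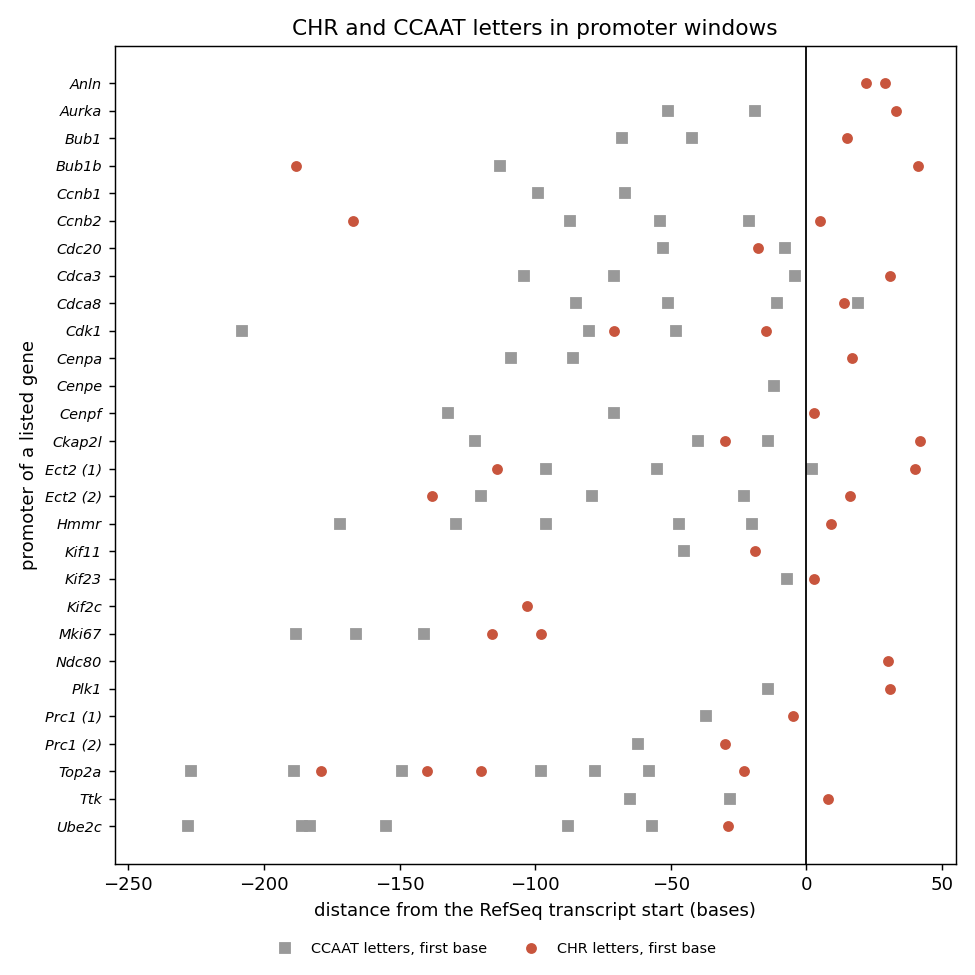
First base of each match to the CHR letters (red circles) and CCAAT letters (grey squares), on either strand, in the RefSeq promoter windows of the members, by distance in bases from the transcript start (vertical line). The 28 windows with any match are drawn, and the CCAAT matches lie mostly upstream and the CHR matches nearer to the start, 25 windows having a CHR match within 100 bases before the start or after it.

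The cyclins, Cdk1 and their activators (6 members) lay at 53.7, 46.5, 70.7, 32.2 and 21.3 summed CPM in CFA 1 to 5 and at 12.6, 14, 14.6, 5.39 and 50.2 in HFA 1 to 5. All 6 were lower in HFA, the median log2 fold change being -1.17 in 10 libraries and -2.33 in 7, where 3 passed. Ccna2 (chr3:36564865-36572150, minus strand), the cyclin of S and G2, was at 17, 12.8, 23.4, 7.44 and 6.34 CPM in CFA 1 to 5 and at 2.99, 3.97, 3.97, 0.366 and 15.4 CPM in HFA 1 to 5. The groups overlapped through HFA 5, and HFA 4 fell to 4 reads. The log2 fold change was -1.31 ± 0.72 (SE), and in the 7 libraries -2.52 ± 0.59 with an adjusted p of 0.0566, which did not pass.

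Cdc25c, the phosphatase that removes the inhibitory phosphates of Cdk1, had the largest fold change of the set and the fewest reads. It was at 1.79, 0.768, 3.25, 1.52 and 0.672 CPM in CFA 1 to 5 and at 0.554, 0.431, 0, 0.0914 and 0.764 CPM in HFA 1 to 5. HFA 5 and the lowest CFA libraries were level. HFA against CFA it was on the log2 scale at -2.0 ± 0.66 in 10 libraries, and in 7 it was -2.91 ± 0.64 with an adjusted p of 0.0485, which passed. Cdk1 itself (chr10:69335146-69352938) was at 9.1 to 16.6 CPM in CFA 1 to 4, 4.93 CPM in CFA 5, 3.02 to 4.4 CPM in HFA 1 to 4 and 11.7 CPM in HFA 5. Its log2 fold change was -1.21 ± 0.46 in 10 libraries and -1.94 ± 0.25 in 7, where it passed. Ccnb2 passed there as well (-2.19 ± 0.37, against -1.12 ± 0.58 in 10 libraries). Ccnb1 (-2.48 ± 0.68) and Foxm1, the transcription factor of late cell cycle genes (-1.82 ± 0.40), did not, with adjusted p-values of 0.0797 and 0.0503. Pseudogene copies of Ccnb1 and Ccnb2 exist elsewhere in the genome, and since reads with several alignments were not counted the levels of both genes are uncertain.

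Among the mitotic kinases and checkpoint genes (6 members) the median log2 fold change was -1.11 in 10 libraries and -2.13 in 7, where 3 passed. Bub1b (chr2:118598211-118641591, plus strand), the checkpoint protein BubR1, was the most abundant of them. It was at 12.2, 13.1, 18.1, 8.09 and 6.49 CPM in CFA 1 to 5 and at 3.99, 4.31, 4.54, 2.1 and 16.6 CPM in HFA 1 to 5. Only HFA 5 reached into the CFA range. Its log2 fold change was -0.86 ± 0.52, and -1.79 ± 0.34 in the 7 libraries (adjusted p = 0.0428).

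Aurka (chr2:172356190-172370535, minus strand), the Aurora kinase of centrosomes and spindle poles, had a small difference with little spread. It was at 6.66, 8.67, 11.6, 7.01 and 4.63 CPM in CFA 1 to 5 and at 4.21, 4.05, 4.12, 3.38 and 6.11 CPM in HFA 1 to 5. Here HFA 5 was above CFA 5 only. Its log2 fold change was -0.81 ± 0.26 in 10 libraries and -1.10 ± 0.25 in 7 (adjusted p = 0.0507). Aurkb, the Aurora kinase of the centromere, had a larger one, with 5.56 to 9.82 CPM in CFA 1 to 4, 2.99 CPM in CFA 5, 0.457 to 1.99 CPM in HFA 1 to 4 and 6.75 CPM in HFA 5. In the 7 libraries it was -2.76 ± 0.44 and passed, as did Plk1 (-2.35 ± 0.38), the Polo kinase of mitotic entry. The checkpoint kinases Bub1 (-1.91 ± 0.57) and Ttk (-2.40 ± 0.60) did not.

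The centromere and kinetochore genes (7 members) had a median log2 change of -1.14 in 10 libraries and -2.18 in 7, where 4 passed (Cdca8, Cenpa, Cenpe and Ndc80). Cenpa (chr5:30666777-30674830, plus strand), the histone H3 variant of centromeres, had the smallest difference of the set. It was at 11.9, 12.5, 11.5, 7.59 and 10.5 CPM in CFA 1 to 5 and at 5.09, 5.52, 4.4, 4.66 and 22.4 CPM in HFA 1 to 5. HFA 5 was the highest of all 10 libraries, and the other HFA libraries were below all of CFA. The log2 fold change of -0.35 ± 0.46 became -1.07 ± 0.21 in the 7 libraries (adjusted p = 0.0428).

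Cenpf (chr1:189640606-189688086, minus strand), a large protein of the kinetochore corona, was at 16.7, 11.6, 24.4, 8.31 and 3.66 CPM in CFA 1 to 5. In HFA 1 to 5 it was at 2.55, 3.36, 5.39, 0.366 and 8.59 CPM. CFA 5 lay inside the range of HFA 1 to 4. Cenpf had a log2 fold change of -1.67 ± 0.68, and -2.54 ± 0.61 in the 7 libraries (adjusted p = 0.0583). Ndc80, which grips the microtubule end, was the member that HFA 5 changed most, with 0.0914 to 1.56 CPM in HFA 1 to 4 and 10.2 CPM in HFA 5. It went from -0.77 ± 0.83 in 10 libraries to -2.65 ± 0.56 in 7. Its partner Nuf2 was at -2.18 ± 0.49 (adjusted p = 0.0507), and Birc5, the survivin subunit of the chromosomal passenger complex, at -1.96 ± 0.53 (adjusted p = 0.0759). Cdca8, the borealin subunit of the same complex, passed with -1.87 ± 0.41, as did the kinetochore motor Cenpe with -2.68 ± 0.54.

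The spindle motors and microtubule proteins (7 members) had a median log2 change of -1.19 in 10 libraries and -1.98 in 7, where 5 passed. Kif11 (chr19:37376403-37421859, plus strand), the kinesin that pushes the spindle poles apart, was at 16.8, 14.5, 27.2, 9.18 and 6.94 CPM in CFA 1 to 5. In HFA 1 to 5 it was at 3.65, 4.14, 6.81, 1.74 and 15.5 CPM. CFA 5 (6.94 CPM) and HFA 3 (6.81 CPM) were nearly equal. Kif11 had a log2 fold change of -1.22 ± 0.56, and -2.15 ± 0.46 in the 7 libraries (adjusted p = 0.0473).

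Nusap1 (chr2:119618298-119651244, plus strand), which bundles spindle microtubules near chromosomes, was at 12.8, 13.6, 19.3, 8.24 and 4.85 CPM in CFA 1 to 5. In HFA 1 to 5 it was at 2.99, 3.62, 3.12, 2.56 and 10.6 CPM. All CFA libraries were above HFA 1 to 4, and HFA 5 was above the lower CFA pair. Its log2 fold change was -1.35 ± 0.48 (unadjusted p = 0.0172, adjusted p = 0.655), and -2.13 ± 0.29 in the 7 libraries (adjusted p = 0.0422). Kif2c, which depolymerises microtubules at centromeres, passed with -1.98 ± 0.34, Hmmr, a spindle assembly factor, with -2.37 ± 0.44, and Tacc3, which stabilises kinetochore fibres, with -1.23 ± 0.20. The spindle assembly factor Tpx2 (-1.54 ± 0.36) and Ckap2l (-1.96 ± 0.54) did not pass.

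**Figure D4:**
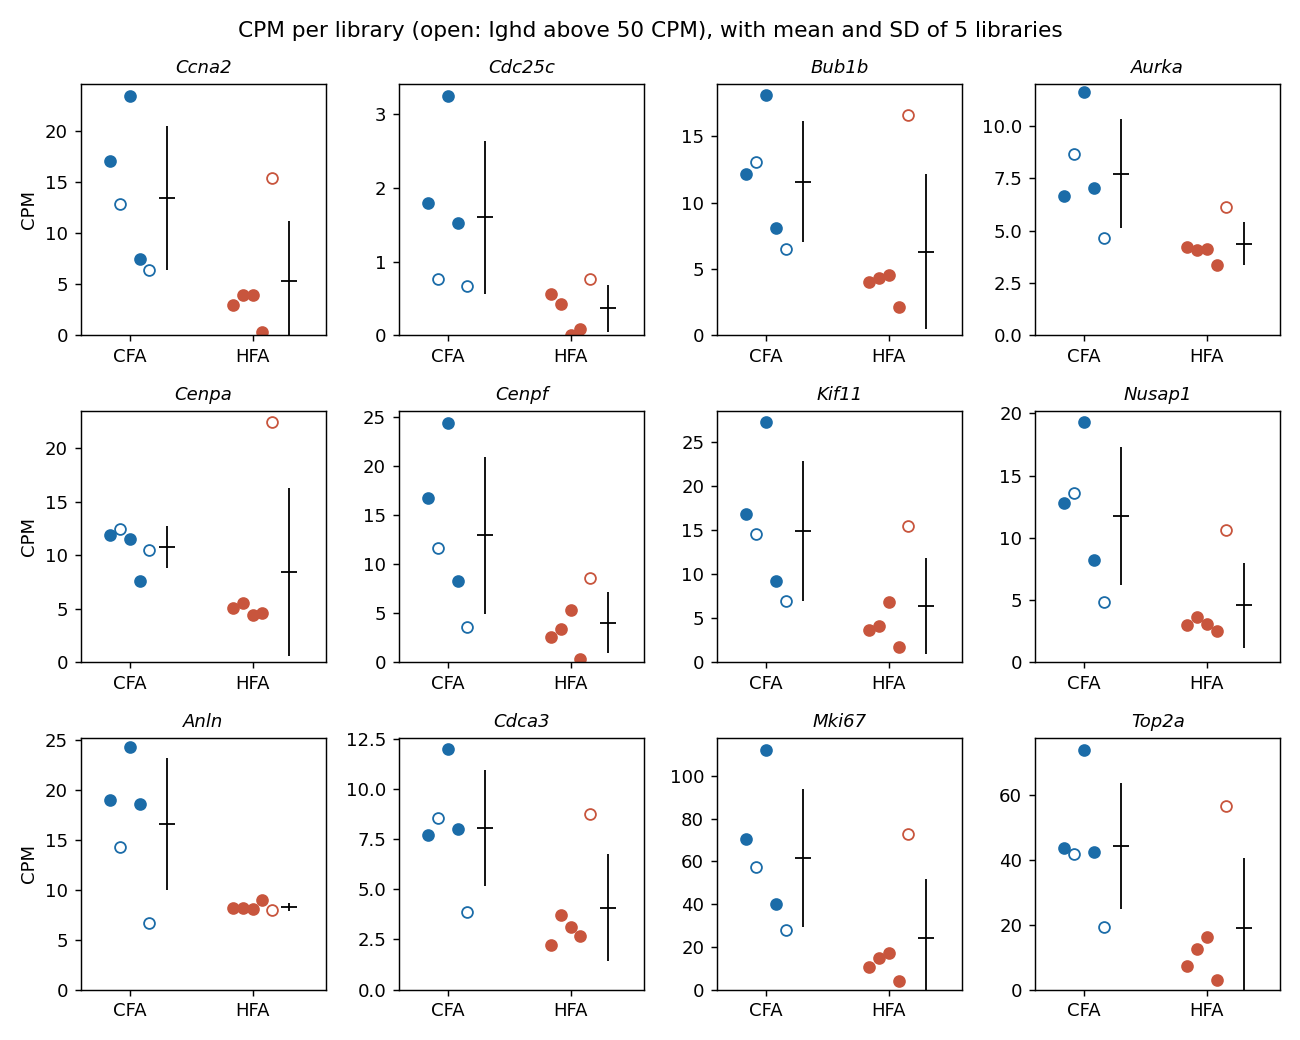
CPM of 12 members in every library, CFA in blue and HFA in red, with open circles for the 3 libraries of high Ighd and, beside them, the mean and SD of the 5 libraries of each diet (whiskers below 0 are cut off). In each panel but Anln the highest HFA point is HFA 5, and in Anln the HFA libraries lie between 7.96 and 8.96 CPM.

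The genes of the central spindle and cytokinesis (5 members) had a median log2 change of -1.0 in 10 libraries and -1.81 in 7, where 3 passed. Anln (chr9:22332012-22389188, minus strand), the anillin that organises the cytokinetic ring, differed from the rest. It was at 19, 14.3, 24.3, 18.6 and 6.64 CPM in CFA 1 to 5 and at 8.19, 8.2, 8.09, 8.96 and 7.96 CPM in HFA 1 to 5. The HFA libraries, HFA 5 included, spanned about 1 CPM (8.28 ± 0.394 CPM, SD, n = 5), against 16.5 ± 6.59 CPM in CFA, and CFA 5 was the lowest of all 10. The log2 fold change was -1.0 ± 0.29 (unadjusted p = 0.00554, adjusted p = 0.648), and -1.30 ± 0.15 in the 7 libraries (adjusted p = 0.0394). Prc1, the crosslinker of antiparallel microtubules, was at 7.01 to 17.9 CPM in CFA 1 to 4, 2.76 CPM in CFA 5, 2.19 to 4.32 CPM in HFA 1 to 4 and 6.17 CPM in HFA 5, and passed in the 7 libraries with -1.97 ± 0.34. Ect2, the activator of RhoA at the cell equator, passed there with -1.99 ± 0.40. The kinesins Kif20a (-1.54 ± 0.37) and Kif23 (-1.81 ± 0.40) did not, with adjusted p-values of 0.0604 and 0.0503.

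The genes of the ubiquitin ligase machinery of mitotic exit (3 members) had a median log2 change of -0.96 in 10 libraries and -1.66 in 7. Cdca3 (chr6:124829547-124833701, plus strand), a trigger of mitotic entry that is destroyed in G1, was at 7.69, 8.56, 12, 8.02 and 3.88 CPM in CFA 1 to 5. In HFA 1 to 5 it was at 2.21, 3.71, 3.12, 2.65 and 8.72 CPM. HFA 5 was above every CFA library but CFA 3. Its log2 fold change was -0.96 ± 0.41, and -1.66 ± 0.25 in the 7 libraries (adjusted p = 0.0428). Cdc20, the activator of the APC/C, and Ube2c, its ubiquitin-conjugating enzyme, were at -1.82 ± 0.45 and -1.60 ± 0.37 there and did not pass, with adjusted p-values of 0.0651 and 0.0534.

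The genes of chromosome structure were the most abundant. Mki67 (chr7:135689784-135716361, minus strand) was at 70.3, 57.6, 112, 40.2 and 28.1 CPM in CFA 1 to 5 and at 10.8, 15, 17.2, 4.21 and 72.8 CPM in HFA 1 to 5. Every CFA library was above HFA 1 to 4, and only CFA 3 was above HFA 5. The means were 61.5 ± 32.3 CPM and 24 ± 27.7 CPM (SD, n = 5 each). The log2 fold change was -1.35 ± 0.68 (adjusted p = 0.681), and -2.66 ± 0.46 in the 7 libraries (adjusted p = 0.0428). Top2a ran beside it, at 43.7, 41.8, 73.9, 42.5 and 19.4 CPM in CFA 1 to 5 and 7.2, 12.6, 16.2, 3.02 and 56.8 CPM in HFA 1 to 5. It also passed in the 7 libraries (-2.47 ± 0.46).

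Other genes of the cell cycle were read from fixed lists in the same fits. Of 59 other mitotic genes (further kinetochore, condensin, spindle and cytokinesis genes), 56 had lower values in HFA with all libraries (median log2 fold change -0.86), and 0 passed. In the 7 libraries 58 were lower, the median was -1.64 and 29 passed, all lower. Smc4, a condensin subunit and the most abundant of them, was at 54.9, 77.8, 64.7, 35.9 and 91 CPM in CFA 1 to 5 and at 28, 29.4, 28.1, 24 and 241 CPM in HFA 1 to 5. Its highest levels were in HFA 5, CFA 5 and CFA 2, the 3 libraries of high Ighd, which was not so for the members. Iqgap3, a scaffold protein of proliferating cells, had the lowest unadjusted p of that list and was at 4.03 to 17.6 CPM in CFA and 1.37 to 5.96 CPM in HFA (log2 fold change -1.76 ± 0.48 in 10 libraries and -2.27 ± 0.46 in 7).

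All 12 replication genes were lower as well (log2 fold changes with a median of -0.48 in 10 libraries, where 0 passed, and -1.04 in 7, where 8 passed). Mcm6, a subunit of the replicative helicase, was at 36.7 to 60.8 CPM in CFA, 20.4 to 35 CPM in HFA 1 to 4 and 65.3 CPM in HFA 5 (-1.18 ± 0.19 in 7 libraries, adjusted p = 0.0428). Gins2, a further helicase subunit, was at -0.94 ± 0.24 there and did not pass.

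The core subunits of the APC/C, which are present through the whole cycle, had medians near 0. Of the 15 genes of this list, which also holds the activator Fzr1, 6 were lower in HFA (median log2 fold change 0.01). In the 7 libraries 10 were lower with a median of -0.03, and 0 passed. Their summed level was 819 to 938 CPM in CFA and 806 to 1049 CPM in HFA. Anapc5 was at 182 to 351 CPM in CFA and 171 to 396 CPM in HFA (0.30 ± 0.25 in 10 libraries and 0.46 ± 0.13 in 7, adjusted p = 0.0839), and Anapc16 was at 0.22 ± 0.14 and 0.21 ± 0.11. Of the 21 genes of the MuvB, E2F and NF-Y regulators 11 were lower in 10 libraries (median -0.03) and 15 in 7 (median -0.12), and 0 passed in either. Rbbp4 of the MuvB core was at -0.03 ± 0.10 and -0.12 ± 0.09. Rbl2, the p130 pocket protein of resting cells, was at 0.45 ± 0.13 (adjusted p = 0.648) and 0.46 ± 0.14 (adjusted p = 0.107).

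Among 8 G1 cyclins and kinases 7 were lower, with medians of -0.23 and -0.39 in 10 and 7 libraries. Ccnd1, cyclin D1, was at 161, 109, 163, 195 and 90.2 CPM in CFA 1 to 5 and 91.1, 55.4, 104, 52.8 and 49.6 CPM in HFA 1 to 5. It was the only gene of that list that passed in the 7 libraries (-1.19 ± 0.25, adjusted p = 0.0453), and unlike the mitotic genes it was lowest in HFA 5. Ccnd2 was at -0.09 ± 0.16 and -0.25 ± 0.18. Of 8 kinases and phosphatases of G2 entry 6 and then 8 were lower (medians -0.33 and -0.47) and 0 passed. The checkpoint kinase Chek1 was at -1.06 ± 0.43 and -1.55 ± 0.46, and Atm at 0.06 ± 0.24 and -0.19 ± 0.14.

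**Figure D5:**
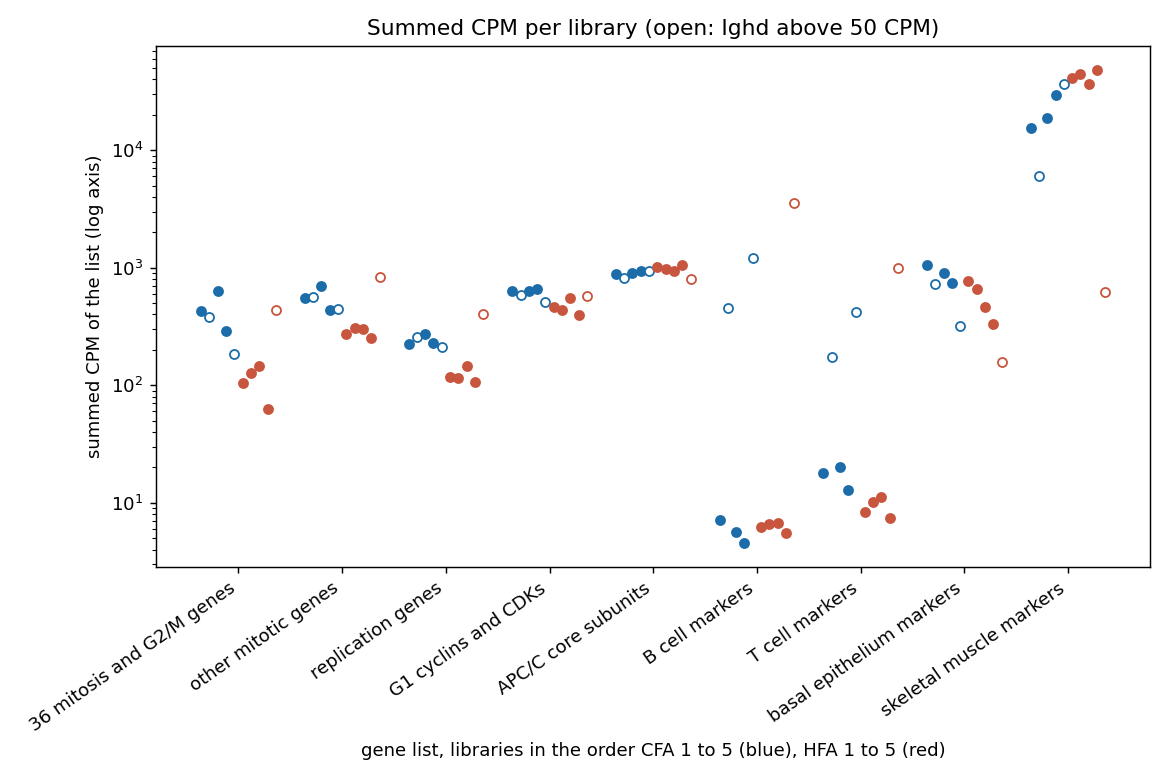
Summed CPM of gene lists in each library on a log axis, in the order CFA 1 to 5 (blue) and HFA 1 to 5 (red), with open circles for the 3 libraries of high Ighd. The 36 mitosis and G2/M genes lie between 62.4 and 146 CPM in HFA 1 to 4 and between 186 and 628 CPM in the other 6 libraries. The APC/C core subunits (with Fzr1) lie between 806 and 1049 CPM in all.

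Markers of cell types also differed between the libraries. All 6 basal epithelium markers were lower in HFA, with medians of -0.96 in 10 libraries and -0.93 in 7, where 3 passed. Their summed level was 318 to 1060 CPM in CFA and 157 to 765 CPM in HFA, lowest in HFA 5, where the mitotic genes were high. CFA 5 was the lowest CFA library for both these markers (318 CPM) and the 36 members (186 CPM). Likewise HFA 4 was the lowest of HFA 1 to 4 for both (333 and 62.4 CPM). Over HFA 1 to 3 the order was opposite, with the basal markers at 765, 652 and 462 CPM and the members at 105, 128 and 146 CPM. The luminal markers had a median of -0.20 and then of about 0, with Epcam lower in the 7 libraries (-0.83 ± 0.18, adjusted p = 0.048). Of 5 fibroblast markers 4 were lower (median -0.71 in both), and 0 passed. All 5 skeletal muscle markers were higher, with medians of 0.68 and 1.00 and 0 that passed, and their summed level was 5987 to 36708 CPM in CFA, 36377 to 48430 CPM in HFA 1 to 4 and 625 CPM in HFA 5. Muscle RNA was thus present beside that of the gland. All 4 brown fat markers were higher (medians 1.49 and 1.96), and 0 passed. All 7 T cell markers were higher in HFA with 10 libraries (median 0.67) and lower in the 7 libraries (median -0.76), and 0 passed in either. Of 4 germinal centre genes tested 2 were lower in 10 libraries and 3 in 7 (median -0.48). Bcl6, which other cells also express, was the only gene of that list that passed, and it rose in the 7 libraries (0.77 ± 0.14, adjusted p = 0.0428). The 6 adipocyte markers (medians 0.12 and 0.07), the 5 endothelial markers (0.16 and 0.08) and the 5 macrophage markers (0.55 and 0.29) gave 0 that passed in either. The part of the epithelial, stromal and muscle content of the pads in the levels of the mitotic genes was not tested.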

How the data were processed

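The authors made libraries with the TruSeq RNA kit, aligned reads to GRCm38 (mm10) with TopHat2 2.0.14 and Bowtie2 2.2.5 and counted them on Ensembl genes with HTSeq 0.6.1, and the deposited values are whole-number counts per gene without normalization. The strand setting is not given in the sources used here, and reads with several alignments (28.8% to 33.9% of counted lines) were left out. Here the lines that name no gene were dropped, and symbols and positions were taken from GENCODE M21 (GRCm38). Genes were filtered with filterByExpr, scaled by TMM and tested in R 4.3.3 with edgeR 4.0.16 (quasi-likelihood test, HFA against CFA, no covariate, Benjamini-Hochberg adjustment over all genes tested, threshold 0.05). A standard error is the fitted log2 fold change over the square root of its F statistic, and the biological coefficient of variation over all genes was 0.409. The fit was repeated without the 3 libraries in which Ighd exceeded 50 CPM. Alternatives used RLE and upper-quartile scaling, no filter, the likelihood ratio test, DESeq2 1.42.0, limma 3.58.1 (voom, also with quality weights), the second title digit, a replicate block and each library left out. The test was also run on simulated counts, drawn independently for each gene with the coefficient of 0.409 for all genes. Of 200 genes altered there by a known 4-fold amount it found 183, with 5 false calls. No simulated library differed from its group as HFA 5 did, so these numbers do not give the power for the members. CPM per kb uses the summed exon length of a gene. Values in every library are given for the most abundant member and the member with the lowest unadjusted p of each of 7 roles. They are also given for Top2a, which was added after its values were seen. One gene of each kind is named for each other cell cycle list. The cell type lists are mostly described as wholes, and the genes named from them do not follow this rule. The members, lists and comparisons were chosen with earlier results of these data known. Counting intervals do not cover differences between mice.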

Additional observations from a re-analysis of the deposited data

Results flagged for a closer look

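Of 72 sets of 5 libraries (36 members in each diet, on the log2 CPM scale) 5 held a library far from the other 4 by Dixon's criterion, which chance alone flags in about 1 in 20 sets. Those for 4 members concern HFA 5, which was far above HFA 1 to 4 for Cdk1 (11.7 CPM), Cenpa (22.4 CPM), Nusap1 (10.6 CPM) and Tacc3 (15.8 CPM). The other is Anln in HFA 4 (8.96 CPM), where the other HFA libraries lay between 7.96 and 8.2 CPM, so that the gap is small in CPM. The members share their libraries, and these sets are not independent of each other.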

How the results depend on the processing

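Each member tested was lower in HFA under each alternative run (35 were tested in the digit 2 libraries alone and 36 elsewhere), except in the digit 3 libraries alone, where 34 of 36 were lower and Cenpa (0.36) and Ndc80 (0.05) higher. With all 10 libraries 0 members passed, against 31 with limma voom quality weights, 29 in the digit 2 libraries alone and 21 without the 3 libraries of high Ighd, and the median log2 fold change moved from -1.13 to -1.98 in the last. With a library left out in turn 0 members passed. Over all genes the count of 0 became 33 with the likelihood ratio test, 60 with DESeq2, 1037 with quality weights, 1418 in the digit 2 libraries and 469 without the 3 libraries, and 0 to 6 with a library left out (6 without HFA 5). In the 7 libraries the 21 members became 35 without the filter, 36 with the likelihood ratio test, 36 with DESeq2, 33 with quality weights and 32 with the title digit in the model, and 0 to 32 with a further library left out. RLE, upper-quartile scaling and limma voom gave 23, 26 and 19. The alternatives within the 7 libraries were chosen after seeing the data. A replicate block by the last 3 title digits, which are only numbers, gave 0 members at an adjusted p of 0.05, with a median of -1.38. The cause of these changes was not tested. Over the 10 libraries 13 members had a mean below 5 CPM.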
